A study of Mus musculus with 8 samples.

Results

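The genes of retinoic acid synthesis, binding, clearance and reception were followed in the developing mouse molar. They were chosen by name as the 3 retinaldehyde dehydrogenases Aldh1a1, Aldh1a2 and Aldh1a3, the binding proteins Crabp1 and Crabp2, the degrading enzymes Cyp26a1 and Cyp26b1, and the 3 receptors Rara, Rarb and Rarg. All 10 were found among the 43629 Ensembl identifiers of the count tables. RNA sequencing was carried out on lower first molars of 8 mouse embryos at E18.5 (counted in days from the vaginal plug), to ask how loss of the Notch ligand Jagged1 from the epithelium alters gene expression in the tooth. The mutant group holds 4 K14Cre;Jagged1fl/fl embryos (K14J26, K14J28, K14J29 and K14J30), in which Cre recombinase is driven by the keratin 14 promoter and therefore acts in epithelial cells, while the mesenchyme is not targeted. The control group holds 4 Jagged1fl/fl littermates (J3, J5, J6 and J7) that carry the same floxed alleles without Cre, as the sample labels have it; the study's methods call these embryos WT. The left and right molar of an embryo were pooled into 1 library, so that epithelium and mesenchyme were measured together. Embryo sex and litter were not given.

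Retinoic acid is the active derivative of vitamin A. Retinol is first oxidised to retinal by retinol dehydrogenases and then to retinoic acid by the Aldh1a enzymes, Crabp proteins carry the product inside the cell, and Cyp26 enzymes of the cytochrome P450 family hydroxylate it and so remove it. In the nucleus it binds Rar receptors, which act on DNA as partners of the Rxr receptors, and a shortage or an excess of vitamin A is known to disturb the formation of enamel and dentin.

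Between 17327224 (J3) and 29792467 (K14J29) reads were counted on genes per embryo. Values are given as CPM, counts scaled to library size by the TMM method, in the order J3, J5, J6 and J7 for controls and K14J26, K14J28, K14J29 and K14J30 for mutants. A level of 3 counts corresponds to 0.0998 to 0.166 CPM. Jag1, the deleted gene (chr2:137081456-137116644 on GRCm38, minus strand), stood at 95.2, 103, 104 and 99.9 CPM in the controls and at 34.0, 39.0, 46.0 and 57.1 CPM in the mutants. Every mutant lay below every control, as the labels have it, and the mesenchyme in the same libraries was not targeted. The counts cover the whole gene, so transcripts that lack only the floxed part would be included. The log2 fold change of Jag1, mutant over control, was −1.19 ± 0.14 (SE, n = 4 and 4), with an adjusted p of 0.00517 in edgeR's quasi-likelihood test.

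Of the 10 retinoic acid genes, all of which passed the filter on low counts, 1 was higher in the mutants (Cyp26a1) and 1 was lower (Crabp1) at an adjusted p under 0.05. Across all 17129 genes tested, 9.52% were called higher and 6.61% lower, and 24.2% had groups that did not overlap, against 2 of the 10 here. These counts lie near the shares over all genes and are not a result about the 10 genes as a group. Their median log2 fold change was −0.18, beside 0.01 over all genes tested.

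The 10 genes covered a wide range of levels. Compared per length, as CPM per kb of exon, Cyp26a1 was the most abundant in the controls with 139 ± 23.0 (SD, n = 4), followed by Crabp1 with 63.6 ± 6.51. Aldh1a3 with 30.1 ± 4.65 and Rarg with 26.1 ± 1.25 were next and did not differ beyond their spread. Crabp2 with 16.5 ± 2.04, Aldh1a2 with 13.7 ± 4.45 and Rara with 13.3 ± 0.255 followed, and Aldh1a2 did not differ from either neighbour beyond its spread. Rarb with 4.71 ± 0.416, Aldh1a1 with 2.35 ± 0.486 and Cyp26b1 with 0.885 ± 0.145 were lowest. In the mutants the order was the same at both ends, with Cyp26a1 at 226 ± 36.4 and Cyp26b1 at 0.810 ± 0.509 CPM per kb. Crabp1 at 34.1 ± 10.7 then overlapped Rarg at 27.4 ± 3.60 and Aldh1a3 at 23.1 ± 4.22.

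**Figure D1:**
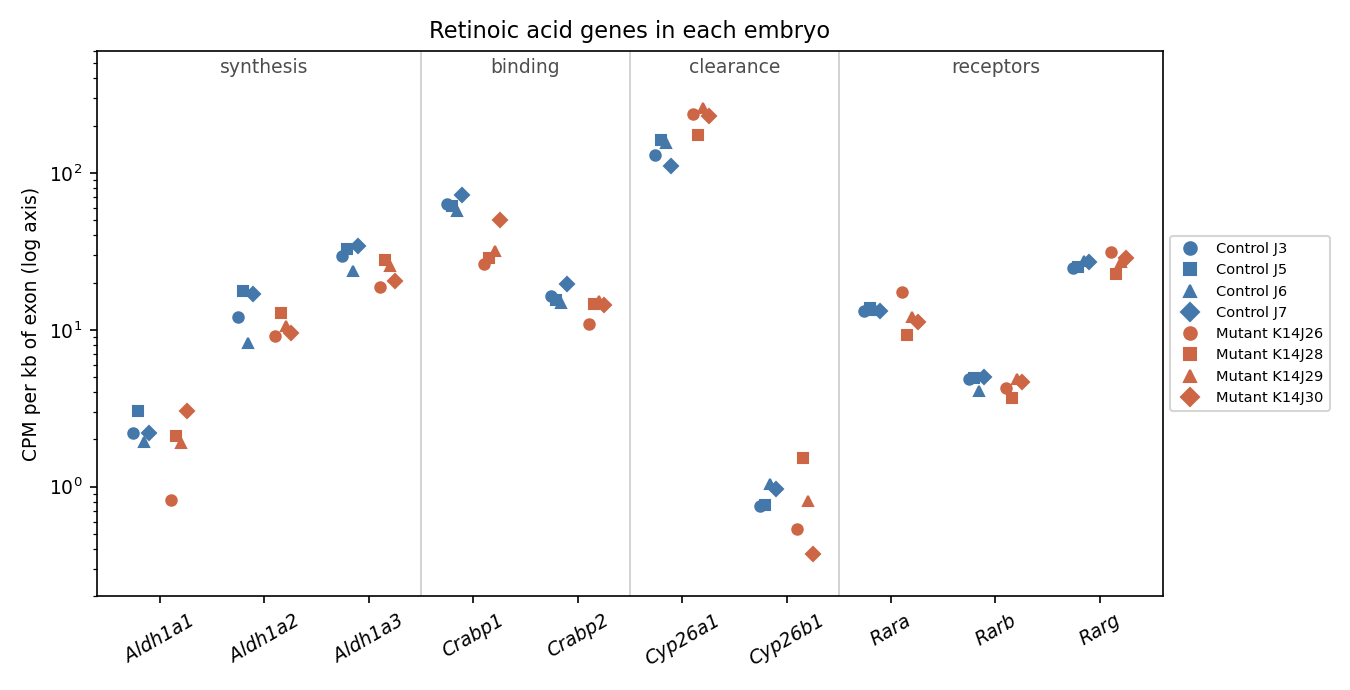
Level of the 10 genes in each embryo, as CPM per kb of exon on a log axis, with controls in blue and mutants in orange and 1 symbol per embryo. The genes are grouped by role, and the groups are apart only for Crabp1 (lower in mutants) and Cyp26a1 (higher in mutants).

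Rar and Rxr receptors bind direct repeats of a short half-site, and the classical response elements of Cyp26a1 and Rarb hold a pair of half-sites 5 bases apart. Promoter windows of 300 bases (250 before to 50 after a start site, RefSeq, GRCm38.p6) were found by symbol for 8 of the 10 genes, all but Aldh1a3 and Crabp2, 13 windows in all. They were searched on both strands for a pair of half-sites in the same orientation, each AGGTCA or AGTTCA or GGGTCA or GGTTCA, with 5 bases between them. Such a pair was found in 32 of 32851 promoter windows of the genome (0.0974%), among them 1 window of Cyp26a1 and 1 of Rarb. Since the classical elements of these 2 genes have this spacing, their matches were to be foreseen and nothing is read from the share. With 1 or 2 bases between the half-sites, 0.222% and 0.268% of all windows held a match and none of the 13. The windows of the 2 genes with a match and of Crabp1 are shown, since Cyp26a1 and Crabp1 are the genes that differed between the groups; capitals mark the matched pair. The Cyp26a1 window lies at chr19:37697558-37697857 on the plus strand, and its match is read on the opposite strand, 32 to 16 bases before the start. The Rarb window lies at chr14:16575427-16575726 on the minus strand, inside the annotated gene, with the match on the gene's strand 53 to 37 bases before the start. The Crabp1 window at chr9:54764498-54764797 on the plus strand held no match. A match is a description of letters, and binding was not measured.
Cyp26a1: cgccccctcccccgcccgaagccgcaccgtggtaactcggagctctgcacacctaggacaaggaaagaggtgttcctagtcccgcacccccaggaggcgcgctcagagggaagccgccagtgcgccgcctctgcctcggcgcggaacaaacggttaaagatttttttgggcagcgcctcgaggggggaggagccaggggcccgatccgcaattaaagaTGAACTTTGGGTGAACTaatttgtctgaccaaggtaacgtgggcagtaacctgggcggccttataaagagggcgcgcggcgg
Rarb: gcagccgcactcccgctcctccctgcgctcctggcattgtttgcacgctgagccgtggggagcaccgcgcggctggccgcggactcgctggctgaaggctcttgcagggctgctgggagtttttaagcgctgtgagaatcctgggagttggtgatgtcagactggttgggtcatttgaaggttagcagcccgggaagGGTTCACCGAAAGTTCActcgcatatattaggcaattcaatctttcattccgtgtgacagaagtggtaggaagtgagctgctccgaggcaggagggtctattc
Crabp1: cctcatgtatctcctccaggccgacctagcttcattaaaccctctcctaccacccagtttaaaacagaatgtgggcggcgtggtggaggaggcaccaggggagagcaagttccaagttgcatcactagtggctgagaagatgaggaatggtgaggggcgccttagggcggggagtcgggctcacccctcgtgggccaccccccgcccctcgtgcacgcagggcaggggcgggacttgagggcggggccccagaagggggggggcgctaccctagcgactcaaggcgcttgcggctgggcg

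Among the synthesising enzymes, none of 3 was called by edgeR in either direction, 1 had an unadjusted p under 0.05 (lower) and DESeq2 called 0. Over all genes, an unadjusted p under 0.05 was found for 19.1% higher and 15.7% lower, and DESeq2 called 13.1% higher and 10% lower. Aldh1a3 (ENSMUSG00000015134, chr7:66390890-66427517, minus strand), the most abundant of the 3 per length, stood at 136, 151, 110 and 158 CPM in the controls and at 86.3, 128, 118 and 94.3 CPM in the mutants. The groups overlapped: K14J28 and K14J29 lay within the control range, whereas K14J26 and K14J30 lay below every control. On the log2 scale the fold change was −0.38 with a 95% interval of −0.71 to −0.05, an unadjusted p of 0.0290 and an adjusted p of 0.103. Without K14J28 the difference was −0.49 and passed the threshold with an adjusted p of 0.0383, and with Xist as a covariate it was −0.66 with 0.0266. With the enamel covariate it was −0.04 (adjusted p = 0.928), and with the other embryos left out 1 at a time it was −0.29 to −0.48 and not called; over all 17 alternatives the adjusted p ran from 0.0266 to 0.928.

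Aldh1a2 (chr9:71215789-71296243, plus strand), the main retinoic acid producing enzyme of many mesodermal tissues in the embryo, stood at 27.2, 40.2, 18.6 and 38.1 CPM in the controls and at 20.7, 29.1, 24.0 and 21.7 CPM in the mutants. The controls J5 and J7 were highest, the control J6 was lowest, and all 4 mutants fell inside the control range. Its log2 fold change of −0.38 had an interval of −0.89 to 0.12 (adjusted p = 0.255); it was −0.01 (0.989) with the enamel covariate, ran from −0.56 to −0.24 with 1 embryo left out, and was called in none of the 17 alternatives. Aldh1a1 (chr19:20492715-20643465, plus strand) stood at 10.9, 15.1, 9.50 and 10.9 CPM in the controls and at 4.04, 10.4, 9.39 and 15.0 CPM in the mutants. K14J26 had the lowest value and the other mutants lay within or next to the control range, with a log2 fold change of −0.25 and an interval of −0.98 to 0.48. Aldh1a7, a near-identical neighbour of Aldh1a1 with which reads may be shared, was similarly low in K14J26, with 7.53 to 9.90 CPM in the controls, 2.21 CPM in K14J26 and 7.75 to 14.1 CPM in the other mutants, so that the value of either gene is uncertain. As shares of the summed CPM per kb of the 3 enzymes, Aldh1a3 gave 61.1% to 70.1% in the controls and 61.8% to 67.1% in the mutants, Aldh1a2 gave 24.2% to 33.2% and 27.9% to 31.9%, and Aldh1a1 the rest. The groups overlapped in the shares of all 3 enzymes.

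The binding protein Crabp1 was lower in the mutants. Crabp1 (ENSMUSG00000032291, chr9:54764748-54773110, plus strand), known as a marker of neural crest derived mesenchyme in the head, stood at 50.9, 49.0, 45.9 and 58.2 CPM in the controls and at 21.1, 22.9, 25.5 and 39.9 CPM in the mutants. All mutants lay below all controls, 3 of them close together and K14J30 nearest to the control range. The group means were 51.0 ± 5.22 and 27.3 ± 8.57 CPM (SD, n = 4 each), a 1.87-fold lower level, with a log2 fold change of −0.90 ± 0.19 (SE), an interval of −1.32 to −0.48 and an adjusted p of 0.0187 in edgeR. In pooled tissue, fewer cells of a type and less RNA per cell cannot be told apart. The difference kept its direction in 17 of 17 alternatives (−1.14 to −0.57; adjusted p 0.000112 to 0.243). It missed the threshold without J3 (−0.90, adjusted p = 0.0542), without J7 (−0.84, 0.0629), without K14J29 (−0.87, 0.0646), with J6 and J7 left out together (−0.87, 0.151), and with a covariate for enamel transcripts (−0.57, 0.243), skeletal muscle transcripts (−0.82, 0.0832) or Xist (−0.75, 0.0684).

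Crabp2 (chr3:87948666-87953376, plus strand), which hands retinoic acid to the nuclear receptors, stood at 21.8, 20.5, 19.6 and 25.7 CPM in the controls and at 14.4, 19.2, 20.2 and 19.1 CPM in the mutants. K14J29 lay inside the control range, K14J28 and K14J30 just below it, and K14J26 clearly below it. A log2 fold change of −0.26, with an interval of −0.55 to 0.02, did not pass the test (adjusted p = 0.174). Per length, Crabp1 made up 79.4%, 79.8%, 79.4% and 78.9% of the summed level of the 2 binding proteins in the controls, and 70.6%, 66.3%, 67.5% and 77.5% in the mutants. The controls were nearly identical and all mutants lay below them.

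The degrading enzyme Cyp26a1 was higher in the mutants. Cyp26a1 (ENSMUSG00000024987, chr19:37697798-37701536, plus strand), whose transcription is itself induced by retinoic acid in many tissues, stood at 256, 319, 306 and 220 CPM in the controls and at 471, 346, 515 and 459 CPM in the mutants. Every mutant exceeded every control, with K14J28 just above the highest control, J5, and the other 3 mutants well above it. The means were 275 ± 45.7 and 448 ± 72.2 CPM (SD, n = 4 each), a 1.63-fold higher level, with a log2 fold change of 0.70 ± 0.15 (SE), an interval of 0.37 to 1.03 and an adjusted p of 0.0187 in edgeR.

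The enamel matrix genes differed between the embryos as well. The enamel list (Amelx, Ambn, Enam, Mmp20 and Klk4) had 4 of 5 genes called higher in the mutants and 0 at zero counts, with Amelx the most abundant. Over all genes tested, 9.52% were called higher. Its summed level was 680, 1900, 3250 and 557 CPM in the controls and 114000, 3500, 25800 and 9640 CPM in the mutants. Among controls, J5 and J6 had the higher enamel sums and the higher Cyp26a1 levels, and among mutants, K14J28 had the lowest of both. The order was not the same throughout: J6 had a larger enamel sum than J5 and a lower Cyp26a1 level. K14J26 held the largest enamel sum of all embryos and took the smallest TMM factor, 0.843, yet its Cyp26a1 level lay below that of K14J29. With the mean log2 CPM of the list (the enamel score) as a covariate, the log2 fold change of Cyp26a1 was 0.32 and was no longer called (adjusted p = 0.287), the lowest of 17 alternatives, all of which gave a positive difference (0.32 to 0.83; adjusted p 0.000195 to 0.287). The call was also lost, at a log2 fold change near that of the main fit, without J3 (0.67, adjusted p = 0.0598), without J7 (0.60, 0.0572), without K14J29 (0.63, 0.0626), with J6 and J7 left out together (0.63, 0.148) and with the skeletal muscle covariate (0.68, 0.0902).

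**Figure D2:**
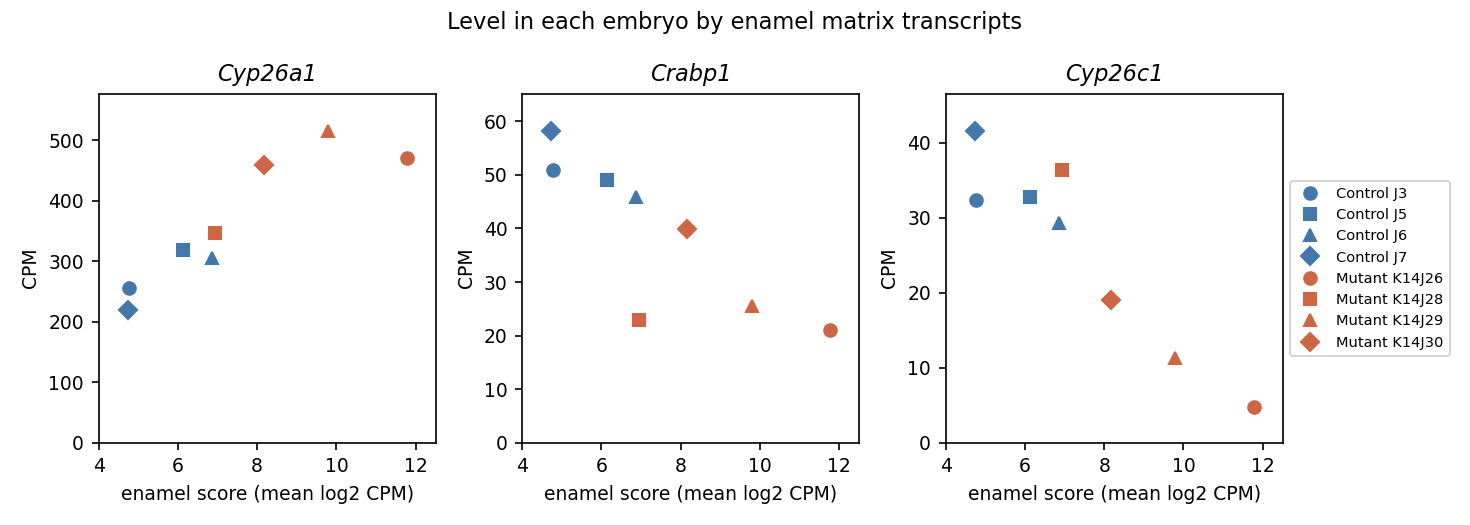
CPM of Cyp26a1, Crabp1 and Cyp26c1 in each embryo (vertical axes from 0) against the enamel score, the mean log2 CPM of 5 enamel matrix genes, with controls in blue and mutants in orange. The control scores run from 4.73 to 6.87 and the mutant scores from 6.94 to 11.78, so that score and group overlap nowhere.

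Cyp26b1 (chr6:84571414-84593908, minus strand), the enzyme that clears retinoic acid in many skeletal and germ line tissues, was scarce. It stood at 4.04, 4.12, 5.60 and 5.17 CPM in the controls and at 2.88, 8.15, 4.33 and 1.98 CPM in the mutants, from 51 to 245 counts. The mutants spread to both sides of the controls, with K14J28 highest and K14J30 lowest. No direction can be given: the log2 fold change was −0.12 with an interval of −0.97 to 0.74 (adjusted p = 0.854).

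The third enzyme, Cyp26c1, lies on the same chromosome as Cyp26a1 (chr19:37685581-37693398) and was singled out after its values were seen. It stood at 32.4, 32.8, 29.3 and 41.6 CPM in the controls and at 4.76, 36.4, 11.3 and 19.0 CPM in the mutants. K14J28 had a control level, while the other 3 mutants lay below every control, K14J26 lowest. The log2 fold change was −0.92 with an interval of −1.99 to 0.15 (adjusted p = 0.198). Without K14J28 it was −1.53 with an adjusted p of 0.0201, without K14J26 it was −0.61 (0.198), with both left out −1.17 (0.00517), and with the enamel score as a covariate it turned to 0.46 (0.354). Within the family, per length, Cyp26a1 made up 87.0%, 89.2%, 89.6% and 81.8% of the summed level in the controls and 98.6%, 88.6%, 97.3% and 95.4% in the mutants. Again K14J28 sat with the controls, and the other mutants had nearly all of their Cyp26 transcripts from Cyp26a1.

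**Figure D3:**
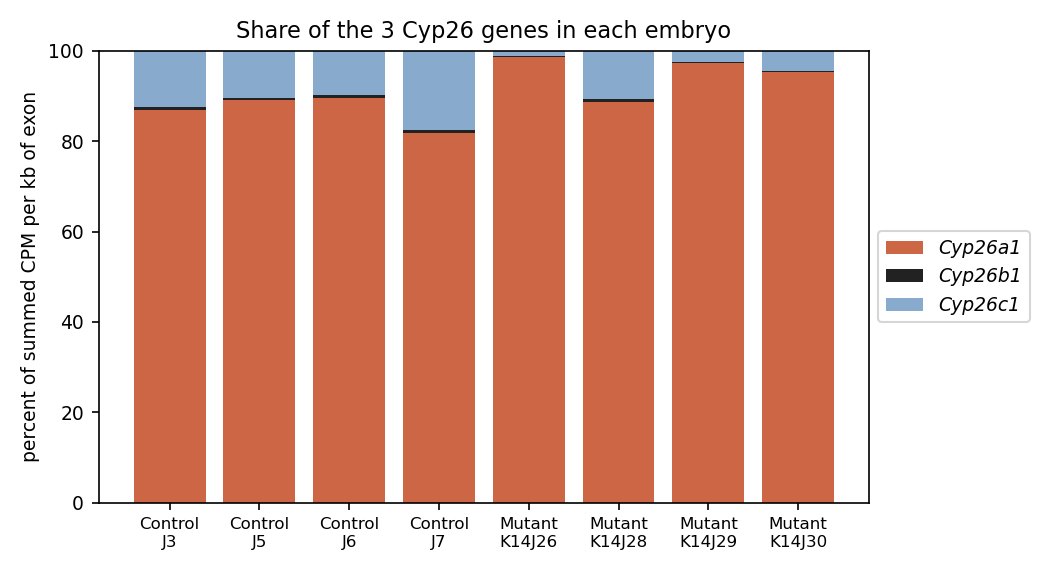
Share of Cyp26a1, Cyp26b1 and Cyp26c1 in their summed CPM per kb of exon, in percent, as 1 stacked bar per embryo. Cyp26c1 takes 9.75% to 17.5% in the controls and 1.13% to 10.6% in the mutants, with K14J28 the highest mutant.

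Among the receptors, none of 3 was called, 0 had an unadjusted p under 0.05 (19.1% higher and 15.7% lower over all genes) and DESeq2 called 0 (13.1% and 10%). Rarg (chr15:102234938-102257517, minus strand), a receptor typical of epithelia and cartilage, was the most abundant per length, and stood at 106, 107, 117 and 115 CPM in the controls and at 133, 96.5, 115 and 123 CPM in the mutants. The mutants lay on both sides of the controls. Its log2 fold change was 0.07 with an interval of −0.14 to 0.29, and its sign turned with library size scaling (−0.04).

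Rara (chr11:98927818-98974942, plus strand), the broadly expressed receptor, stood at 57.1, 59.8, 58.3 and 57.9 CPM in the controls and at 76.5, 40.4, 52.5 and 48.8 CPM in the mutants. The controls were nearly identical (SD 1.11 CPM), whereas no mutant fell in their range: K14J26 lay above all of them and the other 3 lay below (SD 15.5 CPM). The log2 fold change over all embryos was −0.10 with an interval of −0.47 to 0.28 (adjusted p = 0.709). Without K14J26 it was −0.30 and called lower (adjusted p = 0.0389), and with the enamel covariate it was −0.66 and called lower (0.0409). Without K14J28 it was 0.02, and with Xist as a covariate 0.14, so that the sign turned in both; the adjusted p ran from 0.0389 to 0.941 over 17 alternatives. Rxra, a partner of the Rar receptors and one of the most abundant genes of the pathway, stood at 119, 118, 123 and 132 CPM in the controls and at 171, 106, 103 and 101 CPM in the mutants. As for Rara, K14J26 lay above every control and the other 3 mutants below.

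Rarb (chr14:16430839-16819156, minus strand), whose promoter window holds a match and which retinoic acid induces in many cells, stood at 25.5, 25.9, 21.5 and 26.2 CPM in the controls and at 22.4, 19.3, 25.6 and 24.6 CPM in the mutants. The groups overlapped, with J6 and K14J28 low. The log2 fold change was −0.11 with an interval of −0.35 to 0.13 (adjusted p = 0.490 in edgeR). Rarb shares 1793 bases of exon with Top2b on the opposite strand. Top2b was counted 5151 to 9605 times per embryo against 415 to 777 for Rarb, and the library kit does not mark strand, so part of the reads may belong to Top2b. Top2b stood at 285 to 306 CPM in the controls and 271 to 320 CPM in the mutants, with a log2 fold change of −0.03.

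**Figure D4:**
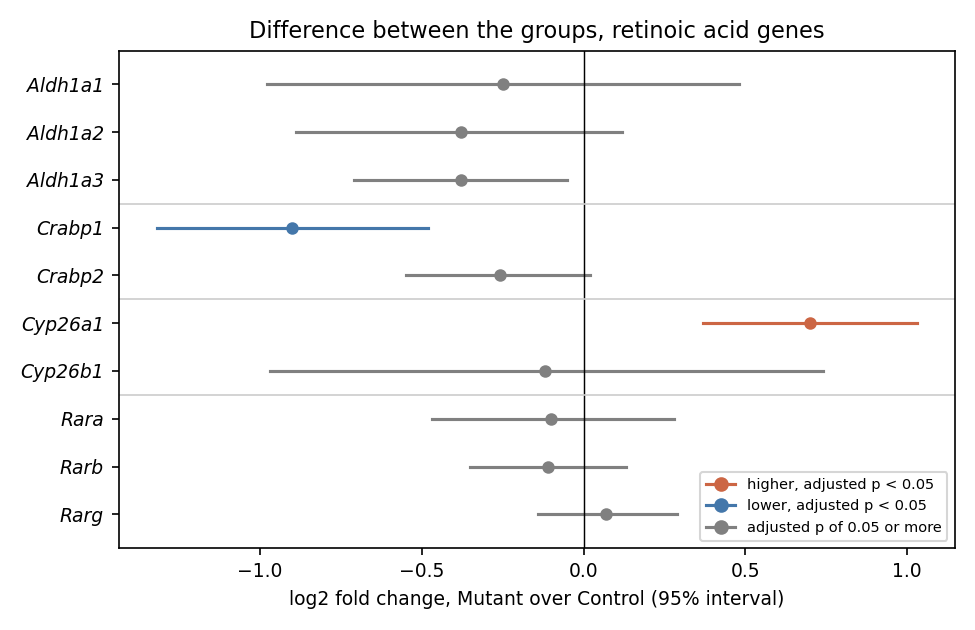
Log2 fold change, mutant over control, of the 10 genes (points) with 95% intervals (lines), grouped by role from synthesis at the top to receptors at the bottom. The intervals of Crabp1, Cyp26a1 and Aldh1a3 leave out 0, and Crabp1 and Cyp26a1 pass the adjusted threshold.

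The wider pathway was read in 39 further genes, of which 31 could be tested. Some genes of the pathway are not reported and do not enter these counts. Of the 31, 0 were called higher and 0 lower in edgeR, beside 9.52% and 6.61% over all genes. An unadjusted p under 0.05 was found for 3 higher and 4 lower (19.1% and 15.7% over all genes), and DESeq2 called 1 higher and 1 lower (13.1% and 10% over all genes). The median log2 fold change was 0.02, beside 0.01 over all genes. By role, 8 of the tested genes belong to retinol carriage, uptake and storage, 12 to retinol and retinal conversion, 6 to further clearance, carriage and reception and 5 are receptor cofactors.

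The most abundant of these genes, by CPM not scaled to length, did not pass the test. The corepressor gene Ncor1, which silences targets of Rar receptors without ligand, had a log2 fold change of 0.16 (−0.02 to 0.34). The coactivator gene Ncoa2 had −0.06 (−0.21 to 0.10) and Rxra −0.03 (−0.39 to 0.33). Rxra was called lower without K14J26 (−0.25, adjusted p = 0.0213) and with K14J26 and K14J28 left out (−0.27, 0.0162), and in no other alternative. Fabp5, which carries retinoic acid to the receptor Ppard, stood at 222, 187, 174 and 184 CPM in the controls and at 113, 189, 172 and 183 CPM in the mutants. K14J26 lay far below every control and K14J29 just below the lowest. The log2 fold change of Fabp5 was −0.22 (−0.57 to 0.12). Adh5, an alcohol dehydrogenase gene, ranged from 98.3 to 109 CPM in the controls and from 84.2 to 98.6 CPM in the mutants, 3 of which lay below every control, with a log2 fold change of −0.16 (−0.31 to −0.01; adjusted p = 0.128). Chosen after their values were seen, the storage enzyme gene Lrat and the retinol uptake receptor gene Stra6 are the genes of these lists that DESeq2 called. Lrat was scarce, at 0.332, 0.206, 0.156 and 0.304 CPM in the controls and 0.913, 0.433, 1.07 and 0.388 CPM in the mutants, with no overlap and a log2 fold change of 1.46 (0.47 to 2.45; adjusted p = 0.0519, and 0.0418 in DESeq2). Stra6 stood at 4.98, 3.79, 4.46 and 6.93 CPM in the controls and 1.63, 2.93, 2.18 and 4.66 CPM in the mutants, where K14J30 reached the control range, with a log2 fold change of −0.82 (−1.54 to −0.11; adjusted p = 0.102, and 0.0496 in DESeq2). With the enamel covariate, the log2 fold change of Lrat was 0.70 (adjusted p = 0.59) and that of Stra6 0.01 (0.99). In edgeR, Lrat was called without K14J28 (1.63, adjusted p = 0.0282), without K14J30 (1.66, 0.0421) and with K14J26 and K14J28 left out (1.54, 0.0495), and Stra6 without K14J30 (−1.16, 0.0364).

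**Figure D5:**
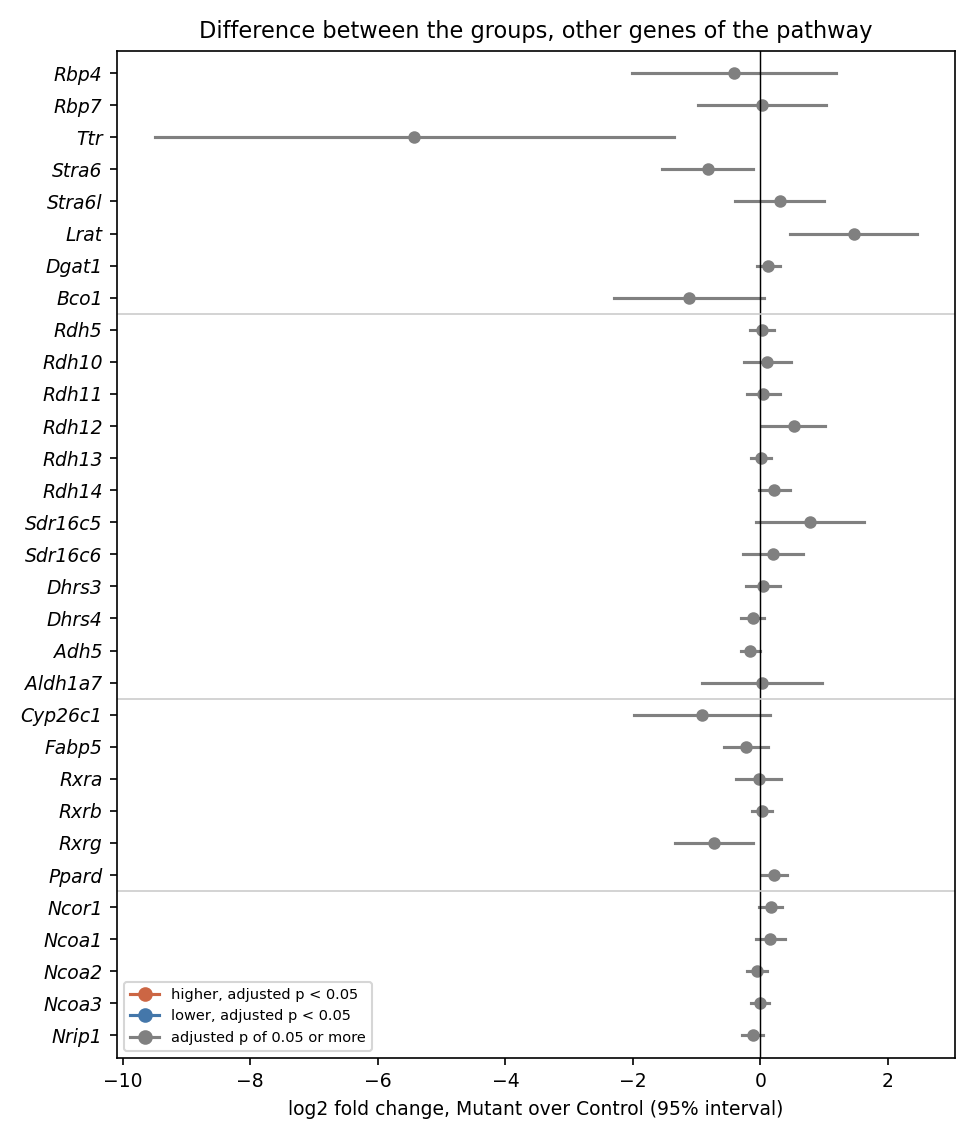
Log2 fold change, mutant over control, of 31 tested genes of the wider pathway (points) with 95% intervals (lines), in the order retinol carriers, retinol and retinal conversion, further clearance and receptors, and receptor cofactors. All 31 have an adjusted p of 0.05 or more, and the widest interval, of Ttr, comes from a gene seen at 17.6 CPM in J7 and at most 0.618 CPM elsewhere.

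A list of 19 genes known to respond to retinoic acid in other tissues was read as well; it leaves out the 10 genes above, Cyp26a1 among them. The filter on low counts left 9 of the 19, and 3 of the others, Stra8, Hoxb1 and Hoxb5, were at 0 in every embryo. In edgeR 0 of the 9 were called in either direction, beside 9.52% higher and 6.61% lower over all genes, 1 had an unadjusted p under 0.05 (lower) and DESeq2 called 0; the median log2 fold change was −0.02, beside 0.01. The most abundant were Lamb1 at 309 to 382 CPM, with a log2 fold change of −0.06 (−0.22 to 0.10), Btg2 at 30.6 to 41.5 CPM with 0.14 (−0.08 to 0.35), and Tgm2 at 13.2 to 36.0 CPM with 0.04 (−0.61 to 0.68).

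Markers of the tissues and cells in a dissected molar moved between the embryos as well. The counts of called markers below stand beside shares over all genes of 9.52% higher and 6.61% lower in edgeR. These shares were 13.1% and 10% in DESeq2, and 19.1% and 15.7% at an unadjusted p under 0.05 in edgeR. With 4 to 6 genes per list, 1 call is not clearly apart from them. The odontoblast list had 3 of 4 genes called higher, Dspp the most abundant, and summed levels of 708, 1590, 1990 and 765 CPM in the controls and 7480, 2350, 5690 and 3500 CPM in the mutants. It ordered the embryos much as the enamel list did, with J5 and J6 above J3 and J7, and K14J28 lowest of the mutants. Of the 6 genes for dental and oral epithelium, 1 was called higher in edgeR (Krt14), while 4 were higher and 1, Epcam, was lower both at an unadjusted p under 0.05 and in DESeq2. The sum, led by Krt5, was 5160, 5010, 5370 and 4660 CPM in the controls and 8080, 5490, 6930 and 6220 CPM in the mutants. Of the 6 for dental mesenchyme, 2 were called higher (Col1a1 and Pdgfra) and 2 lower (Twist1 and Msx1) in edgeR and in DESeq2. Twist1 had a log2 fold change of −0.33 and Msx1 of −0.26. Prrx1 (−0.37) was lower at an unadjusted p of 0.0292 in edgeR. The mesenchyme sum was 4990, 7110, 7780 and 5540 CPM in the controls and 18000, 6620, 12900 and 11500 CPM in the mutants. It was led by Col1a1, with means of 5110 CPM in the controls and 11000 CPM in the mutants. Neither list therefore moved as 1 block. The part of these tissue differences in the levels of Crabp1 and Cyp26a1 was not tested. The fit with the enamel covariate cannot give it, since the enamel score does not overlap between the groups.

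Transcripts of other tissues were high in some libraries. Skeletal muscle transcripts, led by Acta1, with 1 of 6 called lower in edgeR and 5 of 6 lower at an unadjusted p under 0.05 and in DESeq2, summed to 4.65, 12.7, 373 and 183 CPM in the controls and 4.71, 10.3, 9.67 and 17.4 CPM in the mutants, high in J6 and J7. Keratinized and suprabasal oral epithelium, led by Krt13, with 0 of 5 tested genes called (0 at an unadjusted p under 0.05, 0 in DESeq2) and Ivl at or near 0, summed to 67.0, 21.6, 141 and 21.6 CPM in the controls and 19.8, 683, 59.2 and 56.6 CPM in the mutants, high in K14J28. Bone and osteoclast transcripts, led by Ctsk, with 1 of 4 called higher (Bglap), summed to 430, 617, 389 and 385 CPM in the controls and 524, 1740, 605 and 539 CPM in the mutants, again high in K14J28. The called gene Bglap ran otherwise, lowest of the mutants in K14J28 (31.3 CPM, against 73.5 to 201 CPM in the other mutants and 12.7 to 25.3 CPM in the controls). K14J28 is thus the mutant with the largest sums for keratinized epithelium and for bone and osteoclasts and the smallest for enamel. It is also the mutant with the lowest Cyp26a1, Rara, Rarb and Rarg and the highest Aldh1a2, Aldh1a3, Cyp26b1 and Cyp26c1. For Crabp1, Crabp2 and Aldh1a1 it lay between other mutants. With K14J26 and K14J28 left out together, Cyp26a1 (0.83, adjusted p = 0.00397) and Crabp1 (−0.64, 0.0201) were still called.

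The remaining lists held no gene called in edgeR. Endothelium (led by Cdh5) summed to 251 to 275 CPM in the controls and 203 to 249 CPM in the mutants, each mutant below each control. The groups overlapped for the others, with nerve and Schwann cells (Mbp) at 59.2 to 73.7 and 61.8 to 71.9 CPM, macrophages (Csf1r) at 57.5 to 74.3 and 48.8 to 118 CPM, and erythroid cells (Hbb-bs) at 878 to 1290 and 677 to 1650 CPM. K14J28 had the largest sum of all embryos for macrophages and for erythroid cells. Of the 5, 4, 4 and 5 genes of the lists, 2, both endothelial and lower, had an unadjusted p under 0.05 and were called by DESeq2. K14J28 with 1930 CPM and K14J29 with 1470 CPM had high Xist, the RNA that coats the inactive X chromosome, and the remaining embryos had at most 1.09 CPM; high Xist was thus found among mutants alone.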

How the data were processed

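Poly(A) RNA of 8 embryos (4 control, 4 mutant) was sequenced as single-end reads with a kit that does not mark strand. The authors deposited, for each embryo, raw read counts per Ensembl gene without normalization. The methods of the study name GenomicRanges for counting, whereas the submitters' processing notes name featureCounts beside STAR and GRCm38.p3. The Ensembl release and the treatment of reads with several matches are not given in the sources used here.

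Symbols, positions and exon lengths were taken from GENCODE M21, which holds 42548 of the 43629 identifiers. A gene was kept where 2 or more embryos of the control or of the mutant group had 10 or more counts, which held for 17129 genes. Under R 4.3.3, edgeR 4.0.16 scaled the libraries (TMM) and compared the groups by its quasi-likelihood F test, with no covariate; p-values were adjusted over all genes kept (Benjamini-Hochberg) and called below 0.05. Each standard error is the size of the log2 fold change over the root of F, and the 95% intervals come from the same fit. Scores are mean log2 CPM with a prior count of 2. No 2 libraries of a group agreed within sampling noise (chi-square per degree of freedom of at least 6.88 over 12 pairs). Totals ran from 17327224 to 29792467 counts per embryo, and floors cover counting error only.

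The 10 genes and all lists were chosen with earlier results of these data known. Named besides the 10 were the called genes of the pathway and response lists, and the 5 and 3 most abundant of the rest by mean CPM. Also named were the most abundant marker of each list by CPM and those at 0, Jag1, and genes that overlap or closely resemble a member. Cyp26c1, Lrat, Stra6, Ttr, Ncoa1, Stra8, Hoxb1 and Hoxb5 were chosen after their values were seen. So were the markers Krt14, Bglap, Epcam, Pdgfra, Twist1, Msx1, Prrx1, C1qa, C1qb and Adgre1, and the genes with a promoter match. Alternatives were relative log expression scaling, library size only, no count filter, DESeq2 1.42.0, the criteria of the study's methods (p of at most 0.05, and its fold change threshold of 0.5, read here as an absolute log2 fold change), covariates for enamel score, muscle score and Xist, and each embryo left out. The criteria of the study's methods were applied to the p-values and fold changes of the main fit, and the study's own test was not run again. Leaving out J6 with J7, and K14J26 with K14J28, was chosen after seeing the data.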

Additional observations from a re-analysis of the deposited data

Results flagged for a closer look

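In 3 of the 38 groups of 4 embryos looked at, 1 embryo stood far from the other 3, where chance alone gives about 1 in 20. Rarb was 21.5 CPM in control J6, against 25.5 to 26.2 CPM in the other controls. Rxra was 171 CPM in mutant K14J26, against 101 to 106 CPM in the other mutants. Ncoa2 was 129 CPM in mutant K14J28, against 115 CPM in each of the other mutants. Here K14J28 lay within the control range of 117 to 137 CPM, and the other mutants lay below it. The 38 groups cover only part of the genes reported here. Ttr in control J7 (17.6 CPM, against at most 0.618 CPM in the other controls) also stood apart and is not among the 3. The same holds for Ncoa1 in mutant K14J26 (72.5 CPM, against 53.4 to 55.6 CPM in the other mutants).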

How the results depend on the processing

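Cyp26a1 and Crabp1 kept their direction in all 17 alternative fits and were called in 11 and 10 of them; Jag1 was called in 16, with J6 and J7 left out together as the exception (adjusted p = 0.114). The members called higher and lower (1 and 1) were 0 and 0 with the muscle covariate or with J6 and J7 left out; with the enamel covariate they were 0 and 1, the 1 being Rara in place of Crabp1, and with Xist they were 1 and 1, the lower 1 being Aldh1a3 in place of Crabp1. With K14J26 and K14J28 left out, 2 were lower, Rara being added. With 1 embryo left out they ran from 0 to 1 and from 0 to 2. Pathway genes called higher and lower (0 and 0) were 1 and 1 in DESeq2, 2 and 3 by the criteria of the study's methods, 3 and 2 with K14J26 and K14J28 left out, and 0 to 2 and 0 to 1 with 1 embryo left out. Over all 17129 genes, 1631 were higher and 1133 lower. The counts were 855 and 1060 with library size only and 2244 and 1718 in DESeq2. By the criteria of the study's methods, applied to the p-values and fold changes of the main fit, they were 1426 and 1002. With the enamel covariate they were 186 and 112, and with the muscle covariate 73 and 61. Leaving out J6 and J7 gave 3 and 4 (2 controls remaining), and leaving out K14J26 and K14J28 gave 2347 and 1803 of 16795 tested. With 1 embryo left out, 250 to 2479 were higher and 170 to 1843 lower. The share of calls that were higher was 59%, but 44.6% with library size only, where the median of all genes shifted to −0.09, and 42.9% without J6 and J7.

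Signs turned, with none of the values of the turned sign called, for Aldh1a1 (0.49 with the enamel covariate, 0.07 without K14J26 and K14J28), Crabp2 (0.05, enamel), Cyp26b1 (0.43 enamel, 0.04 muscle, 0.09 without J6 and J7, −0.63 to 0.12 with 1 embryo left out, among them 0.03 without K14J26), Rara (0.14 with Xist, 0.02 without K14J28; with 1 embryo left out it ran from there to −0.30, which was called lower), Rarb (0.02 without K14J26 and K14J28) and Rarg (−0.16 enamel, −0.04 library size only). The cause of these changes was not tested. The enamel score does not overlap between the groups, so that score and genotype cannot be told apart. At these depths Lrat rested on 3 to 31 counts per embryo.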

Other observations

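Of the 31 genes with a pair of half-sites 5 bases apart in a promoter window, 14 matched an identifier of the count tables by symbol and 7 were tested. Cyp26a1, the gene that led to the list, was the 1 gene called higher, and 0 were called lower, beside 9.52% and 6.61% over all genes. The median log2 fold change of the 7 was 0.45, beside 0.01 over all genes, and nothing is read from these counts. The others besides Rarb were Blvrb at a mean of 21.6 CPM, with a log2 fold change of 0.34 (adjusted p = 0.0931 in edgeR), and Cfap45, Ppbp, Prokr2 and Syndig1, at 2.79 CPM or less on average. These genes were listed after the values of Cyp26a1 had been seen.

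Per length, the share of Rara in the summed level of the 3 receptors was 29.4% to 31.4% in the controls, and no mutant fell in that range, with 33.1% in K14J26 and 24.9% to 27.4% in the other mutants. Rarg gave 57.4% to 61.1% in the controls and 58.8% to 64.6% in the mutants, 3 of which lay above every control. Rarb gave 9.12% to 11.3% and 8.03% to 11.1%. These shares were not tested.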
